A study of Mus musculus with 4 samples.

Results

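The MHC class I presentation core was taken as 10 genes: the transactivator Nlrc5, the light chain B2m, the heavy chains H2-K1, H2-D1 and H2-T23, the peptide transporter subunits Tap1 and Tap2, the loading factor Tapbp, and the immunoproteasome subunits Psmb8 and Psmb9. They were chosen by name, as a pathway, and all 10 were among the 16591 genes of the count table and among the 11945 genes tested. RNA sequencing reads had been counted in 2 libraries of a JQ1-resistant Eμ-Myc line (JQ1R) and 2 libraries of a JQ1-sensitive Eμ-Myc line (JQ1S). JQ1 blocks the bromodomains of BET proteins, and Eμ-Myc cells are B-lymphoma cells in which an immunoglobulin heavy-chain enhancer drives Myc. Both lines are of the C57BL/6 strain, were harvested at early passage from the same medium, and have no drug treatment named at harvest. Since each state is represented by 1 line, JQ1 resistance and other differences between these lines cannot be told apart. The labels do not say whether the replicates were separate cultures, so the p-values measure only the spread between these libraries, which may be technical.

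MHC class I molecules display short peptides from inside the cell to CD8 T cells. The immunoproteasome cuts proteins into peptides, the TAP1-TAP2 transporter carries the peptides into the endoplasmic reticulum, and tapasin, the product of Tapbp, holds the transporter next to empty class I molecules so that they can be loaded. Each molecule pairs a heavy chain with beta-2 microglobulin. NLRC5 has no DNA-binding domain of its own and acts at class I promoters through a complex of RFX, CREB/ATF and NF-Y proteins, which sit on neighbouring X1, X2 and Y boxes.

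The promoters of B2m, H2-K1 and H2-D1 hold letters of the X2 and Y boxes. With that of Tap1 they are shown because the members below are set beside Nlrc5. The window of H2-T23 held a Y match but no X2 match, and X1 letters were not searched. Sequences are RefSeq windows of GRCm38.p6 that run from 250 bases before to 50 bases after each start site, 5′ to 3′ on the gene strand, and 8 of the 10 members matched that table. Capitals mark 4 motifs searched on both strands: the X2 box core TGACG, the Y box core CCAAT, the interferon-response letters GAANNGAAA and the kappa-B letters GGGNNTTCC. None of the marked matches overlap each other.
B2m, chr2:122147437-122147736, plus strand: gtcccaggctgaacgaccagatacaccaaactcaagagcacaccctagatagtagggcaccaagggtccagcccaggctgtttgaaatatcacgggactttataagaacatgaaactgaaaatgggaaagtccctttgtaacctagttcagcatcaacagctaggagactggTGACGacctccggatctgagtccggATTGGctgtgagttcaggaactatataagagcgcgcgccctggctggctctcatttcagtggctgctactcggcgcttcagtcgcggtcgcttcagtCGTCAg
H2-K1, chr17:34000298-34000597, minus strand: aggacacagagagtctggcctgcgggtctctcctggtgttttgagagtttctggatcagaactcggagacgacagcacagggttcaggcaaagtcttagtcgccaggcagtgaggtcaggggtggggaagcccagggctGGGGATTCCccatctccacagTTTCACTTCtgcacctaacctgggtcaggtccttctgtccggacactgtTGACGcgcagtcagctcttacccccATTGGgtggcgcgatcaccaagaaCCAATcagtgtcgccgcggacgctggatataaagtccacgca
H2-D1, chr17:35262844-35263143, plus strand: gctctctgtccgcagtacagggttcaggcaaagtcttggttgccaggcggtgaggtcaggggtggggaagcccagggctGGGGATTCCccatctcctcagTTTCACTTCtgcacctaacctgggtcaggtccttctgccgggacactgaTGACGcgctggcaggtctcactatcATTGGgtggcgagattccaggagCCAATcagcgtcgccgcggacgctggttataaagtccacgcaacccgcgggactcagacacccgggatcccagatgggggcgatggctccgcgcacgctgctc
Tap1, chr17:34187306-34187605, plus strand: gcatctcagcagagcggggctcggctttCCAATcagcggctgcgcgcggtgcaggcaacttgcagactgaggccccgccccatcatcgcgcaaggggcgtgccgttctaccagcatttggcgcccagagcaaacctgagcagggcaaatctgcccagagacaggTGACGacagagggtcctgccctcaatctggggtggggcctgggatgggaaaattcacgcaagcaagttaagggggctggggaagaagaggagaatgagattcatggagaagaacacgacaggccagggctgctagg

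In B2m, H2-K1 and H2-D1 the X2 core and the Y core were 20 bases apart, in the same order and orientation on the gene strand. The X2 core began at -78 in B2m, -41 in H2-K1 and -101 in H2-D1, counted from the start site of the window printed, and the Y core at -53, -16 and -76. From the other RefSeq start site of H2-K1 the same cores began at -55 and -30. An X2 core followed within 30 bases by a Y core, on either strand, was found in 3 of the 8 members with a window, against 1.71% of all 32817 windows. The exact arrangement with 20 bases between, looked for after the matches had been seen, was found in 19 windows of the 32817 (0.0579%), and 4 of the 19 belonged to these 3 members, since H2-K1 has a second, overlapping window. Singly the letters are common. X2 was in 20.8% of all windows and Y in 37.4%, against 5 and 7 of the 8 members. The interferon-response letters were in 7.52% and the kappa-B letters in 5.82% of all windows. Both were in H2-K1 and H2-D1 and in no other member's window. Pairs more than 30 bases apart, pairs with the Y core first and varied letters were not searched, so a window without a match may still hold related letters. By RefSeq start sites, Tap1 and Psmb9 lie head to head with 225 bases between them, so their windows share 275 bases. In GENCODE M21 Psmb9 reaches to 34187764, past the start of Tap1 at 34187553, so there the genes overlap. A match of letters is a description of the sequence and not evidence of a bound factor.

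**Figure D1:**
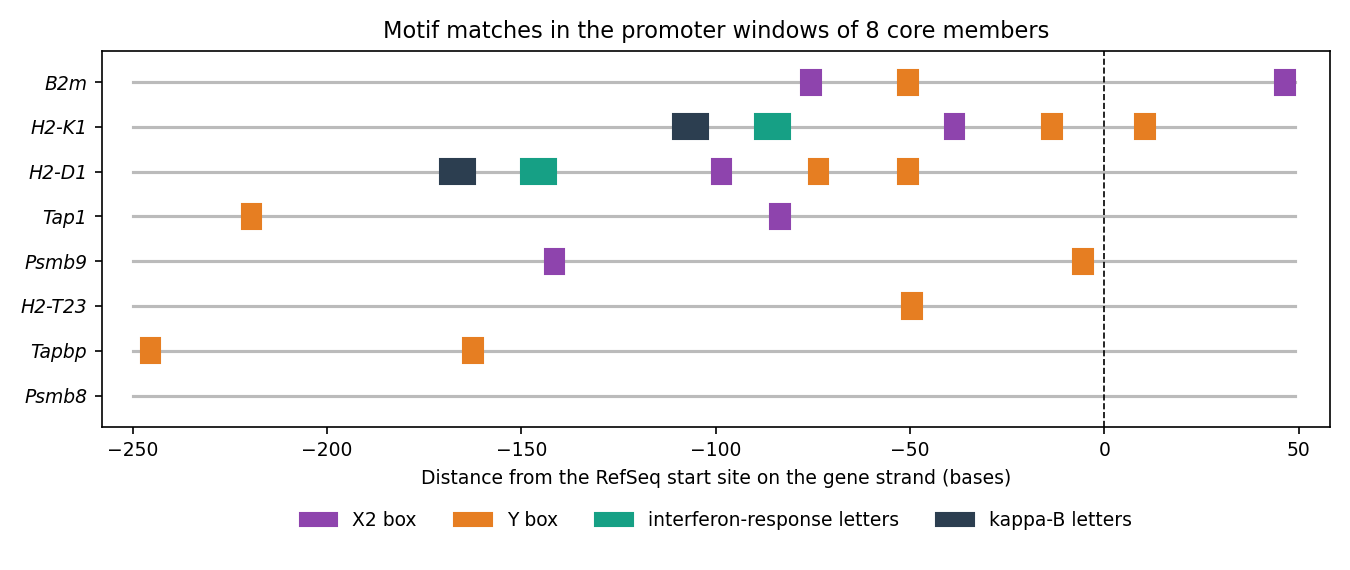
Motif matches in the promoter windows of 8 members. The horizontal axis is the distance in bases from the RefSeq start site on the gene strand, each grey line is a window, and each coloured block is a match. B2m, H2-K1 and H2-D1 share an X2 box and a Y box 20 bases apart. For H2-K1 only the window whose sequence is printed is drawn.

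Most of the core stood higher in JQ1R than in JQ1S cells, by modest amounts. Of the 10 members, 6 rose in JQ1R cells (Nlrc5, Tap1, Psmb9, H2-D1, H2-K1 and B2m) and 0 fell. Calls were made at an adjusted p below 0.05 in edgeR's quasi-likelihood test over all tested genes, and CPM below are counts scaled to 1e+06 reads per library. Among all 11945 tested genes 2.20% were called higher and 1.52% lower, 3.73% in all. DESeq2 called 4 members higher and 0 lower, and limma-voom called 6 higher and 0 lower. Before adjustment 0 members were lower with an edgeR p below 0.05, against 926 of the 11945 tested genes. In either direction 9 of the 10 members had such a p, against 2013 of the 11945. All 10 log2 changes were positive, between 0.13 and 0.83, with a median of 0.30 beside a median of 0.00 over all tested genes. In 9 members both JQ1R libraries stood above both JQ1S libraries, a separation in that direction that 24.1% of tested genes showed. In bulk libraries, more cells that express a gene and more RNA per cell cannot be told apart.

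**Figure D2:**
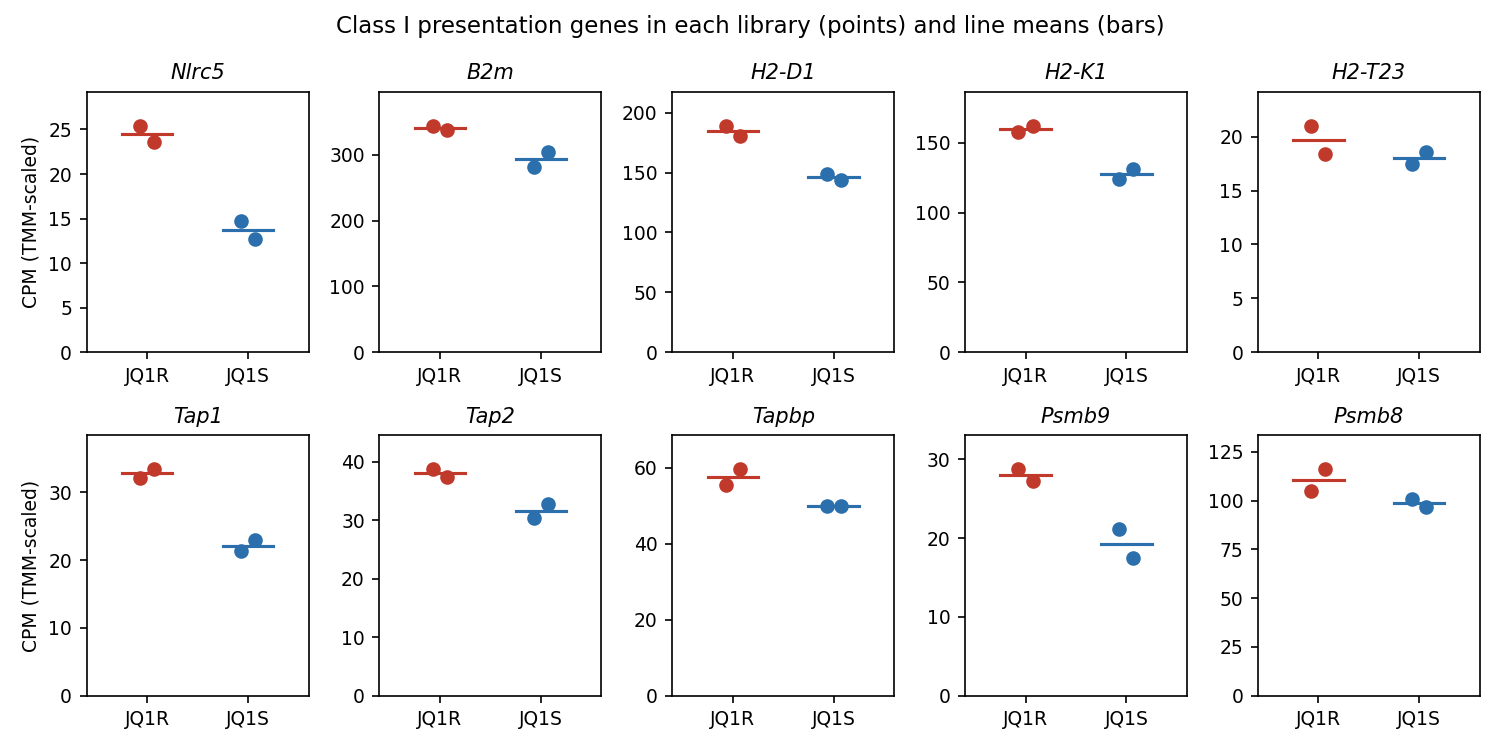
CPM of the 10 members in each library. The vertical axis is CPM on TMM-scaled library sizes and starts at 0, points are libraries, and short bars are the means of the 2 libraries of a line. The lines overlap only in H2-T23.

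Total counts were 10928239 and 11809635 in the JQ1R libraries and 13048103 and 10346007 in the JQ1S libraries, so that 1 read was worth 0.0771 to 0.0972 CPM. Across genes, which are not independent replicates, log2 CPM correlated at 0.995 between the JQ1R libraries, 0.994 between the JQ1S libraries and 0.988 to 0.989 between lines. The JQ1S replicates stood further apart, with a chi-square of 4.05 per degree of freedom over the tested genes, against 1.79 for the JQ1R replicates. B-cell identity was present in both lines: 8 B-lineage markers summed to 4163 and 4075 CPM in JQ1R and 4071 and 4190.1 CPM in JQ1S libraries, and none of the 7 tested was called in edgeR, although Vpreb1, of the pre-B-cell receptor, was at 0.589 CPM or less. Of 8 T- and NK-cell markers only Cd3d and Klrb1c were in the table, summing to 1.01 and 0.337 CPM in JQ1R and 0.848 and 0.680 CPM in JQ1S libraries, and Cd3d had a count of 0 in 1 library of each line. The 4 of 8 macrophage and dendritic-cell markers in the table summed to 2.38 and 2.69 CPM in JQ1R and 1.85 and 1.55 CPM in JQ1S libraries. Of 7 stromal and endothelial markers 2 were in the table, Pecam1, which B cells also express, and Cdh5, and Cdh5 was at 1.56 and 1.43 CPM in JQ1R and 1.39 and 1.17 CPM in JQ1S libraries.

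The transactivator had the largest log2 change of the 10. Nlrc5 (ENSMUSG00000074151, chromosome 8, 94434356 to 94527272 on GRCm38) had 278 and 280 counts in the JQ1R libraries and 191 and 131 counts in the JQ1S libraries. That is 25.4 and 23.6 CPM in JQ1R cells (95% exact Poisson intervals 22.5 to 28.6 and 20.9 to 26.5), against 14.7 and 12.7 CPM in JQ1S cells (12.7 to 17 and 10.6 to 15.1). The groups did not overlap, nor did these intervals, which cover counting error only. Nlrc5 rose 1.77-fold, which is 0.83 ± 0.11 (SE) on the log2 scale, and its adjusted p was 2.68e-04 (edgeR, 2 libraries per line). Per kilobase of exon Nlrc5 was also the member of the lowest level, at 2.89 CPM per kb in JQ1R and 1.62 CPM per kb in JQ1S cells.

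The classical heavy chains and their light chain all rose, by less than Nlrc5 in log2 terms. H2-D1 (chromosome 17, 35262730 to 35267499) stood at 189 and 181 CPM in JQ1R libraries and 149 and 144 CPM in JQ1S libraries, which differ by 0.34 ± 0.06 on the log2 scale (adjusted p = 0.00271, edgeR). H2-K1 (chromosome 17, 33996017 to 34000347) stood at 158 and 162 CPM in JQ1R libraries and 124 and 131 CPM in JQ1S libraries, which differ by 0.33 ± 0.06 on the log2 scale (adjusted p = 0.00362). In both genes each line's libraries lay close together and the lines stood clearly apart. B2m (chromosome 2, 122147686 to 122153083), which encodes the light chain shared by all class I molecules, had 344 and 338 CPM in JQ1R libraries and 282 and 304 CPM in JQ1S libraries. Its log2 change was 0.22 ± 0.06, or 1.16-fold, with an adjusted p of 0.0456 in edgeR, the weakest of the 6 calls. The call of B2m held in 7 of 13 alternatives, with adjusted p-values between 1.92e-06 and 0.437. It was lost with DESeq2 (adjusted p = 0.109), with a stricter filter (0.0504), with another scaling (0.0517), with the replicate number as a block (0.0518), without JQ1R replicate 1 (0.437) and without JQ1R replicate 2 (0.333). H2-D1 lost its call without JQ1R replicate 1 (adjusted p = 0.0842, range 5.91e-08 to 0.0842) and H2-K1 without JQ1R replicate 2 (0.0856, range 7.09e-08 to 0.0856).

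H2-T23 (chromosome 17, 36029773 to 36032855) encodes Qa-1, a nonclassical heavy chain that presents signal peptides to receptors of NK cells. It was the exception among the heavy chains of the core, with 21 and 18.4 CPM in JQ1R libraries and 17.5 and 18.6 CPM in JQ1S libraries. The lines overlapped, and the log2 change of 0.13 ± 0.11 had an adjusted p of 0.61 in edgeR. Its log2 change was 0.03 without JQ1R replicate 1, 0.22 without JQ1R replicate 2 and 0.08 without JQ1S replicate 1, and it was called in 0 of 13 alternatives. Class I heavy chains are similar to each other in sequence. Of the 50-base stretches in the longest coding transcript, 29.8% in H2-T23, 14.3% in H2-D1 and 8.79% in H2-K1 occur in transcripts of other genes, mostly other class I genes, so reads of these genes can be lost or misplaced. Outside the heavy chains the share was 21.02% in Tapbp, 12.6% in Tap2, 5.83% in Psmb8 and 0.86% in Tap1. B2m, Nlrc5 and Psmb9 share none.

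The 12 listed class I heavy-chain genes of the table were therefore also counted together, and 83.5% to 84.0% of their counts came from H2-K1 and H2-D1 in each library. Together they stood at 415 and 409 CPM in JQ1R libraries and 328 and 327 CPM in JQ1S libraries. The sum rose by 0.33 ± 0.05 on the log2 scale, with an adjusted p of 0.00136 in edgeR when it took the place of the single genes. Of 22 other heavy chains and class I relatives listed, 11 were in the table and 8 had enough counts to be tested. All 8 log2 changes were positive, with a median of 0.49, against 6082 positive among the 11945 tested genes. In 6 of the 8 the lines did not overlap, against 5653 of the 11945 in either direction. Before adjustment 3 of the 8 had an edgeR p below 0.05, against 2013 of the 11945. Only H2-Q4, a nonclassical heavy chain, was called higher, with 10.9 and 10.8 CPM in JQ1R libraries against 7.78 and 7.0 CPM in JQ1S libraries (log2 change 0.54 ± 0.14, adjusted p = 0.0485 in edgeR). DESeq2 (adjusted p = 0.537) and limma-voom (0.057) did not call it, nor did the fits without JQ1R replicate 1, without JQ1R replicate 2 or without JQ1S replicate 2, and over 13 alternatives its adjusted p ranged from 0.0118 to 0.537. H2-T22 (log2 change 0.46 ± 0.17), H2-T24 (0.27 ± 0.12) and H2-M3, which presents formylated peptides (0.82 ± 0.39), had adjusted p-values of 0.155 or more. H2-T22 was called without JQ1S replicate 1 (adjusted p = 0.0246), and H2-M3 had 18 counts or fewer in every library.

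**Figure D3:**
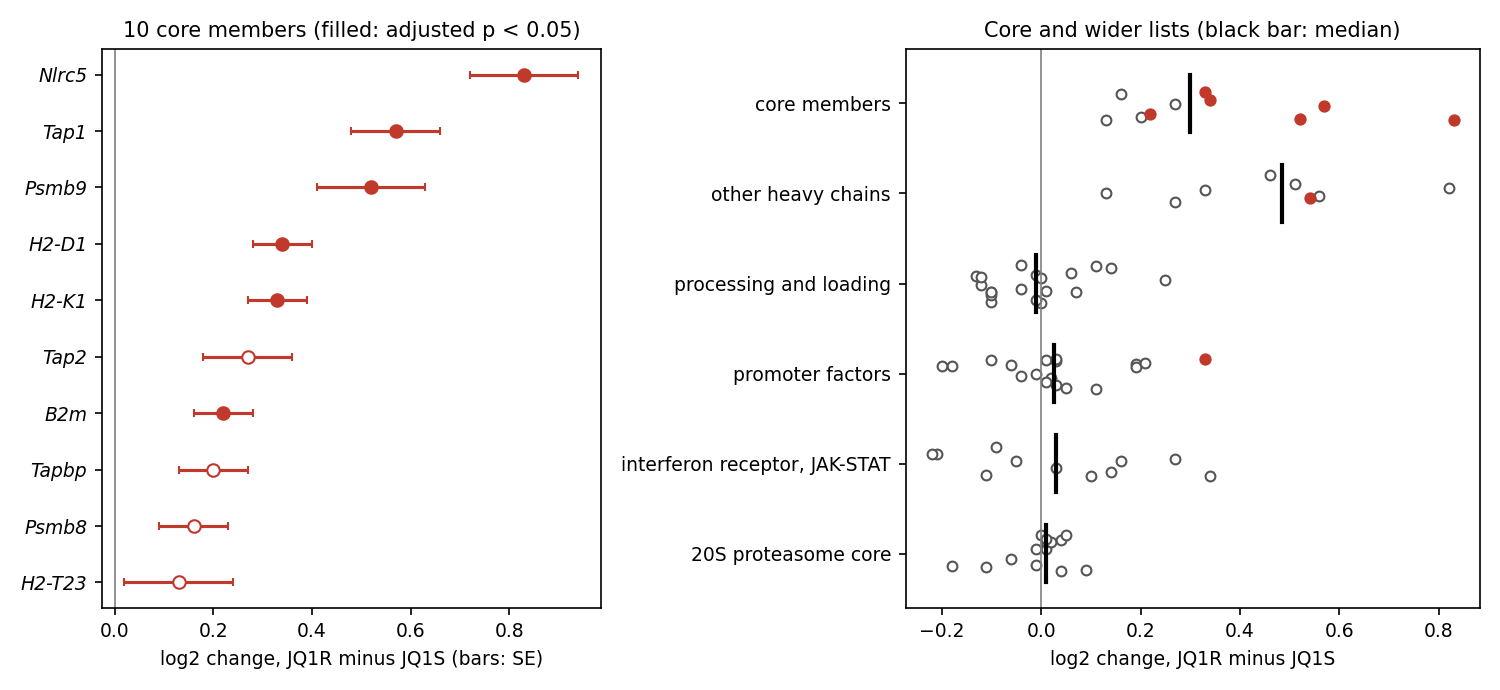
Log2 changes, JQ1R minus JQ1S. On the left, the 10 members with their standard errors, filled where the adjusted p was below 0.05. On the right, the same values for the members and for the tested genes of 5 wider lists, 1 point per gene, red where called, with a black bar at the median. The median is 0.30 for the core, 0.49 for the other heavy chains and between -0.01 and 0.03 for the lists of processing genes, promoter factors, interferon receptor genes and proteasome genes.

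The immunoproteasome subunits of the core differed from each other. Psmb9 (LMP2; chromosome 17, 34181987 to 34187764), whose product takes the place of the constitutive subunit of Psmb6, had 28.7 and 27.2 CPM in JQ1R libraries and 21.1 and 17.5 CPM in JQ1S libraries. It rose by 0.52 ± 0.11 on the log2 scale, or 1.44-fold, with an adjusted p of 0.00936 in edgeR, but the call was lost with DESeq2 (adjusted p = 0.0818, with 1.89e-06 to 0.0818 over 13 alternatives). Psmb8 (LMP7; chromosome 17, 34197721 to 34201454), which likewise takes the place of Psmb5, had 105 and 116 CPM in JQ1R libraries and 101 and 96.6 CPM in JQ1S libraries. The lines did not overlap, but they came close, and the log2 change of 0.16 ± 0.07 did not pass the test (adjusted p = 0.219 in edgeR, or 0.0277 without JQ1S replicate 1, with a range of 0.0277 to 0.901). Psmb10, the remaining inducible catalytic subunit, which lies outside the MHC, stood at 53.2 and 47.3 CPM in JQ1R libraries and 52.8 and 46.3 CPM in JQ1S libraries, a log2 change of 0.01 ± 0.09.

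Set against the constitutive subunits that they replace, only Psmb9 separated the lines. The ratio of Psmb9 to Psmb6, per kilobase of exon, was 0.123 and 0.123 in JQ1R libraries and 0.0887 and 0.0688 in JQ1S libraries, a log2 difference of 0.66. The size of such a ratio depends on the exon lengths used, but the difference between lines does not. In CPM without lengths the ratio was 0.241 and 0.241 in JQ1R libraries and 0.173 and 0.134 in JQ1S libraries. The exact two-sided permutation test over 2 against 2 libraries gave p = 0.333, which is the smallest it can give. The ratio of Psmb8 to Psmb5 per kilobase was 0.237 and 0.272 in JQ1R libraries and 0.220 and 0.250 in JQ1S libraries, which overlap, a log2 difference of 0.11 (exact permutation p = 0.667). Without lengths it was 0.890 and 1.02 in JQ1R libraries and 0.828 and 0.940 in JQ1S libraries. The ratio of Psmb10 to Psmb7 per kilobase was 0.582 and 0.505 in JQ1R libraries and 0.548 and 0.560 in JQ1S libraries, a log2 difference of -0.03 (exact permutation p = 1.00). Of the 14 genes of the proteasome core particle, which include Psmb5, Psmb6 and Psmb7, edgeR, DESeq2 and limma-voom each called 0. The log2 changes of the 14 lay between -0.18 and 0.09. Psmb2, with a log2 change of -0.18, was the 1 gene whose edgeR p was below 0.05 before adjustment. Over all 11945 tested genes, 2013 had such a p.

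Of the transporter and loading genes, Tap1 rose. Tap1 (chromosome 17, 34187553 to 34197225), which encodes the first subunit of the peptide transporter, had 32.2 and 33.4 CPM in JQ1R libraries and 21.3 and 23 CPM in JQ1S libraries. It rose 1.48-fold (log2 change 0.57 ± 0.09, adjusted p = 0.00136 in edgeR), and it was called in all 13 alternatives, as Nlrc5 was. Tap2 (chromosome 17, 34203527 to 34216321), the partner subunit, had 38.7 and 37.4 CPM in JQ1R libraries and 30.4 and 32.8 CPM in JQ1S libraries. There was no overlap between the lines, but the log2 change of 0.27 ± 0.09 did not pass the test (adjusted p = 0.103 in edgeR, or 0.0112 without JQ1S replicate 2, with a range of 0.0112 to 0.694). Tapbp (chromosome 17, 33915899 to 33929292) had 55.4 and 59.6 CPM in JQ1R libraries and 49.9 and 50.0 CPM in JQ1S libraries, again without overlap, and its log2 change of 0.20 ± 0.07 missed the threshold (adjusted p = 0.158). Exons of genes on the other strand cover 24.9% of the exonic bases of Tapbp, 18.5% of Tap2, 14.7% of Psmb8, 5.79% of Psmb9, 3.87% of Tap1 and 0.920% of Nlrc5. The strand setting of the counting is not given in the sources used here, so reads of such partners cannot be told apart there.

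Per kilobase of exon the members spanned a wide range of levels in each line. B2m was highest, at 396 CPM per kb in JQ1R and 341 CPM per kb in JQ1S cells, followed in both lines by H2-D1 (71.8 and 56.9 CPM per kb in JQ1R and JQ1S cells), H2-K1 (54.5 and 43.4), Psmb8 (32.7 and 29.2), Tapbp (15.8 and 13.8) and Tap2 (10.1 and 8.37). Psmb9 stood above H2-T23 in JQ1R cells, at 7.64 against 6.82 CPM per kb, and below it in JQ1S cells, at 5.27 against 6.24 CPM per kb. Tap1 (5.99 and 4.05) and Nlrc5 were the lowest in both lines. In this order the libraries of neighbouring genes did not overlap within either line. The order depends on the use of merged exons, which can be much longer than a transcript. Psmb9 had 3660 merged exonic bases but 1303 stretches of 50 bases in its longest coding transcript, against 860 and 811 for B2m.

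Beside Nlrc5, the other 9 members had positive log2 changes too, each smaller than that of Nlrc5. The log2 change of Nlrc5 was above that of Tap1 by 0.26 ± 0.15 and above that of Psmb9 by 0.30 ± 0.16. These standard errors combine those of both genes as if independent, and they leave the order of these genes unsettled. For the remaining members the difference was 0.49 to 0.70, with standard errors of 0.13 to 0.16. Each member's log2 CPM was centred on its own mean over the 4 libraries and compared with that of Nlrc5 by Euclidean distance. A small distance means a like pattern of a like size. Values were not scaled, so a member that moves in step with Nlrc5 but by less also lies further away. The nearest members were Psmb9, at a distance of 0.30, and Tap1, at 0.37, and they ranked 29 and 42 among 8113 eligible genes. H2-D1 (0.51, rank 126) and H2-K1 (0.55, rank 187) came next, then Tap2 (0.61, rank 341), B2m (0.65, rank 567), Tapbp (0.67, rank 643), Psmb8 (0.70, rank 958) and H2-T23 (0.74, rank 1440). The ratio of B2m to Nlrc5 CPM was 13.5 and 14.3 in JQ1R libraries and 19.2 and 23.9 in JQ1S libraries, and that of Tap1 to Nlrc5 was 1.27 and 1.42 in JQ1R libraries and 1.45 and 1.81 in JQ1S libraries. Every one of the 9 ratios was lower in both JQ1R libraries than in both JQ1S libraries, and all 9 share the same Nlrc5 values. With 4 libraries no correlation across libraries was computed, and whether Nlrc5 acts on these genes in these cells was not tested.

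**Figure D4:**
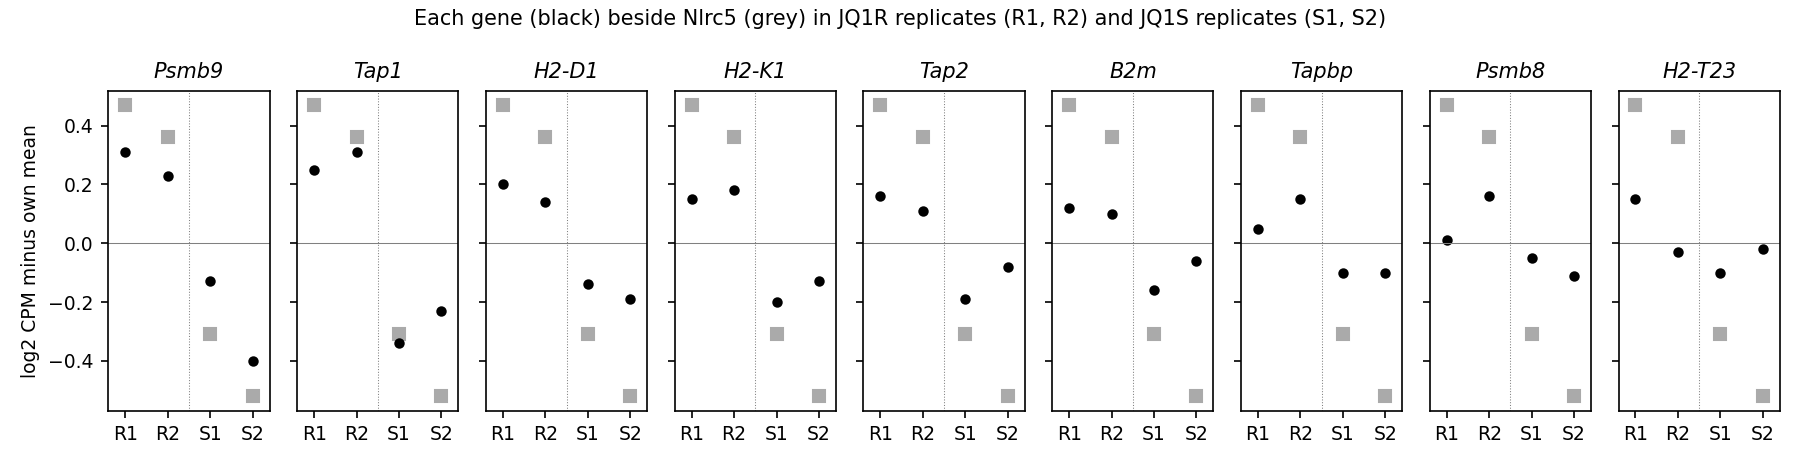
Pattern of each member beside Nlrc5. The vertical axis is log2 CPM minus the gene's own mean over the 4 libraries, black points are the named gene, grey squares are Nlrc5, and R1, R2, S1 and S2 are the JQ1R and JQ1S replicates. Psmb9 and Tap1 lie closest to Nlrc5, and Psmb8 and H2-T23 lie furthest from it.

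The 5 genes whose pattern over the 4 libraries was most like that of Nlrc5 were none of the other 9 members. They were the sorting receptor Sorl1 (distance 0.116, log2 change 0.86), the amino acid transporter Slc36a4 (0.120, 0.72), the pro-apoptotic gene Bmf (0.128, 0.75), the class II invariant chain Cd74 (0.137, 0.94) and the zinc finger gene Zbtb10 (0.164, 0.67). Cd74 had 36.2 and 34.8 CPM in JQ1R libraries and 20.2 and 16.5 CPM in JQ1S libraries. All 5 were called higher in JQ1R cells in edgeR, and DESeq2 did not call Slc36a4 (adjusted p = 0.149, range 1.94e-04 to 0.149). A gene near Nlrc5 by this measure must differ between the lines much as Nlrc5 does, so these calls follow from the choice.

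None of the other genes of processing and loading passed the test. Of 20 listed, 19 were tested, and edgeR, DESeq2 and limma-voom each called 0. Before adjustment 3 had an edgeR p below 0.05, against 2013 of all 11945 tested genes. The median log2 change of the list was -0.01. The proteasome activator Psme2 stood at 82.7 and 76.2 CPM in JQ1R libraries and 70.4 and 62.4 CPM in JQ1S libraries (log2 change 0.25 ± 0.08, adjusted p = 0.0833). Psme2 was called with the replicate number as a block (adjusted p = 0.0359) and without JQ1S replicate 1 (1.02e-04). Its partner Psme1 had a log2 change of 0.14 ± 0.06 (adjusted p = 0.225). The chaperones of the loading complex did not pass the test, with log2 changes of -0.10 ± 0.06 for Calr, 0.00 ± 0.06 for Canx and -0.04 ± 0.06 for Pdia3, as did the peptide-trimming enzyme Erap1 (0.07 ± 0.07) and the tapasin-related Tapbpl (-0.13 ± 0.13).

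Among 18 tested promoter factors, Irf2 rose and 0 fell, by edgeR, DESeq2 and limma-voom alike. Before adjustment 5 had an edgeR p below 0.05, against 2013 of all 11945 tested genes. Of the 5, Irf2, Nfyb and Rfx5 were higher and Eed and Nfyc were lower. Irf2, an interferon regulatory factor that can bind class I promoters, had 103 and 107 CPM in JQ1R libraries and 78.9 and 88.6 CPM in JQ1S libraries (log2 change 0.33 ± 0.07, adjusted p = 0.0113 in edgeR). Its call was lost without JQ1R replicate 2 (adjusted p = 0.152, range 1.77e-08 to 0.152). The RFX subunits that carry NLRC5 to DNA had log2 changes of 0.19 ± 0.09 for Rfx5, 0.03 ± 0.13 for Rfxank and -0.06 ± 0.12 for Rfxap, with adjusted p-values of 0.290 or more. Irf1, a factor that interferon induces, stood at 24.3 and 22.3 CPM in JQ1R libraries and 19.8 and 20.6 CPM in JQ1S libraries (0.21 ± 0.10, adjusted p = 0.318). Nfyb (0.19), Nfyc (-0.18) and the Polycomb subunit Eed (-0.20) had adjusted p-values of 0.120 or more. Ciita, the class II counterpart of Nlrc5, had 13 and 9 counts in JQ1R libraries and 9 and 5 counts in JQ1S libraries and was too low to be tested.

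Of 12 listed genes of the interferon receptors and JAK-STAT signalling, which can induce class I genes, 11 were tested. Each of edgeR, DESeq2 and limma-voom called 0 of them, and the median log2 change was 0.03. Before adjustment 1 had an edgeR p below 0.05, against 2013 of all 11945 tested genes. The receptor chain Ifngr1 (log2 change 0.14 ± 0.09), the kinase Jak2 (0.27 ± 0.16) and the feedback inhibitor Socs1 (-0.22 ± 0.23) did not pass the test. Socs1 had 4.03 and 4.63 CPM in JQ1R libraries and 6.17 and 3.69 CPM in JQ1S libraries, so that the JQ1S libraries enclosed the JQ1R ones.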

How the data were processed

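Gene expression was measured by RNA sequencing of total RNA in 4 libraries, 2 per line. The deposited values are raw counts by Ensembl gene, not normalized. Per the submitters' processing notes, FastQC, cutadapt 1.7, TopHat, Bowtie2, HTSeq and limma were used, with GRCm38 and mm10. Their roles, the annotation release and the strand setting are not stated there. The lowest sum over the libraries was 4 counts, and 0 columns were left unused. Symbols and positions are from GENCODE M21 (GRCm38), which held 16393 of 16591 identifiers.

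Counts were fitted with edgeR 4.0.16 in R 4.3.3 (glmQLFit, glmQLFTest), with TMM factors, the group alone, and filterByExpr (min.count 10, min.total.count 15). P-values were adjusted by Benjamini-Hochberg over 11945 genes and called below 0.05. CPM uses TMM-scaled library sizes, and log2 CPM a prior count of 2. Alternatives used DESeq2 1.42.0, limma-voom (limma 3.58.1), 4 other scalings, 2 other filters, a replicate block and each library left out. The script was tested on simulated data. Lengths are of merged exons.

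Genes named beyond the 10 members are 21 pathway genes listed by name, up to 4 of smallest p in each of 5 wider lists and the 5 genes most like Nlrc5, taken from genes whose log2 CPM averaged 3 or more and that are neither predicted nor immunoglobulin genes. Cell type markers are also named, as are genes of the MHC span and of the motif search, which were chosen after their values were seen. One of the genes listed by name is not reported here. The members and lists were chosen with earlier results of these data known.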

Additional observations from a re-analysis of the deposited data

How the results depend on the processing

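Every one of the 10 members kept a positive log2 change in all 13 alternatives, with between 4 and 7 called higher and a median of 0.25 to 0.31. Nlrc5 ranged from 0.73 to 0.94 and Tap1 from 0.51 to 0.62. Over members and alternatives together, 119 calls stayed as they were, 9 were lost, 2 were gained and 0 reversed direction. Over all tested genes DESeq2 called 208, and fits without 1 library called 270 to 1381. The fits that called 1381 and 1187 left out JQ1S replicate 1 and JQ1S replicate 2, those that called 302 and 270 left out JQ1R replicate 1 and JQ1R replicate 2, and in each the lone library is assumed to vary like the other line. Scalings moved the median of all genes by at most 0.02. The replicate number as a block gave 595 calls in all and 5 members. Deviations of same-numbered libraries correlated at -0.0201, so the numbers were not taken as a pairing.

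Other heavy chains called higher numbered 0 with DESeq2, limma-voom, the stricter filter and the scaling without the top 20 and immunoglobulin genes, and 0 to 2 without 1 library, with a median of 0.30 to 0.63. Processing and loading genes gave 1 higher with the block, and 0 to 2 higher and 0 to 3 lower without 1 library. Without 1 library, promoter factors gave 0 to 1 higher and 0 to 1 lower (median 0.01 to 0.05), proteasome genes 0 to 2 higher and 0 to 1 lower (median -0.06 to 0.08), and the interferon list a median of -0.00 to 0.07, or 0.06 with no filter. Small changes crossed 0 without 1 library: Psmb10 (-0.08 to 0.12), Canx (-0.06 to 0.07), Pdia3 (-0.13 to 0.05), Psmb5 (-0.07 to 0.17), Psmb7 (-0.06 to 0.17), Rfxank (-0.04 to 0.12), Rfxap (-0.23 to 0.10), Socs1 (-0.51 to 0.23), Psma7 (-0.12 to 0.01) and the log2 ratio of Psmb10 to Psmb7 (-0.13 to 0.07). Beyond the fewer libraries or genes of such fits, the cause was not tested. Counting error limits the lowest genes, such as Ciita and H2-M3.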

Other observations

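The 8 members on chromosome 17 lie between 33915899 and 36032855 (GRCm38), and the other genes of that span were looked at after the values had been seen. Apart from the listed genes and 6 tested class II genes, 78 genes were tested there, of which 1 was higher (1.28%) and 2 were lower (2.56%) in JQ1R cells in edgeR, with a median log2 change of -0.01. The higher one was H2-K2, a class I sequence of the same family as H2-K1 whose reads may be shared with its relatives, with 61 and 45 counts in JQ1R libraries and 30 and 16 counts in JQ1S libraries (log2 change 1.23 ± 0.28, adjusted p = 0.0175). The lower ones were Ddah2 (3.57 and 3.62 CPM in JQ1R libraries, 7.01 and 7.48 CPM in JQ1S libraries, adjusted p = 0.00391) and Vwa7 (log2 change -1.36 ± 0.22, adjusted p = 0.00115). Vwa7 had 3.02 and 2.36 CPM in JQ1R libraries and 7.63 and 6.03 CPM in JQ1S libraries.

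The X2 and Y arrangement with 20 bases between was found in the promoter windows of 16 genes, 11 of which were tested. Besides B2m, H2-K1 and H2-D1, edgeR, DESeq2 and limma-voom each called 0 of the other 8. Over all tested genes edgeR called 3.73%, so 0 calls among 8 genes lies near that share and does not set them apart. Znrd1as was the 1 gene whose edgeR p was below 0.05 before adjustment, a mark that 2013 of all 11945 tested genes passed. It had 2 and 6 counts in JQ1R libraries and 15 and 13 counts in JQ1S libraries. H2-M3, the remaining class I gene among the 11 tested, had 15 and 18 counts in JQ1R libraries and 11 and 8 counts in JQ1S libraries.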
